A study of Mus musculus with 26 samples.

Results

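The Hox genes are the homeobox genes of the Hoxa, Hoxb, Hoxc and Hoxd clusters, taken here as every gene whose platform symbol is Hox followed by a cluster letter and a paralog number. A gene entered when at least 4 probe sets of the array carried its symbol and no other. Of 38 Hox genes listed, 34 met this rule (9 Hoxa, 10 Hoxb, 8 Hoxc and 7 Hoxd genes), out of 18341 genes tested in all. Their 249 probe sets, short groups of probes mostly aimed at 1 exon region, were reduced to a gene value, the median over the brighter 50% of its probe sets, with brightness taken as the mean of the 26 arrays. Gene values are log2 signals, so that 1 log2 unit is a 2-fold difference of signal, and probes differ in brightness, so levels were compared within a gene and not between genes.

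Hox genes encode homeodomain transcription factors that give cells their position along the head to tail axis. Within a cluster the genes lie in the order of their paralog numbers, and low-numbered genes are switched on earlier and nearer the head than high-numbered ones, which mark the trunk, limbs, hindgut and tail. In pluripotent cells the clusters are held silent by Polycomb complexes, retinoic acid, Wnt signals and Cdx factors open them during mesoderm and neural formation, and a subset, led by Hoxa9 with its cofactor Meis1, is known for its part in blood progenitors.

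RNA from 26 mouse samples was hybridised to Affymetrix Mouse Exon 1.0 ST arrays, 1 array per sample, after 2 rounds of amplification. The labels give the tissue as embyonic Body cell (so spelled, with a number), the source as mouse ES EB, and a strain: ES1 to ES14 are labelled 129S2/SvPas (n = 14) and ES15 to ES26 C57BL/6 (n = 12). No treatment, time, genotype, passage or differentiation protocol is given in the labels, and nothing says that the samples were separate cultures, so p-values speak only of how these arrays spread, and that spread may be technical. The arrays are described below in 5 runs of titles, ES1 to ES12, ES13 and ES14, ES15 to ES20, ES21 to ES24, and ES25 and ES26, which are no groups of the labels and carry no test.

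The runs differed in marker genes of several cell types, and these values stand beside every Hox comparison below. The mean gene value of 10 pluripotency genes was 10.95 to 11.41 in ES21 to ES24, 7.97 to 8.83 in ES13 and ES14, 7.92 to 8.58 in ES15 to ES20, 7.32 to 8.26 in ES25 and ES26, and 5.36 to 6.07 in ES1 to ES12. The mean of 9 neutrophil and myeloid genes was 11.15 to 12.47 in ES1 to ES12 and 5.53 to 6.78 in the rest. In ES1 to ES12 the tissue label thus stood beside myeloid markers, with Pou5f1, which defines pluripotent cells, at a median of 5.56 against 11.36 in ES21 to ES24. ES15 to ES20 held the highest means of embryonic red cell genes (9.29 to 11.53, with 1 of ES13 and ES14 reaching 9.42), endothelial genes (8.42 to 9.35) and visceral endoderm genes (6.68 to 7.78), ES13 and ES14 those of primitive streak genes (7.16 to 8.52), and ES21 to ES24 those of neural genes (7.13 to 7.49). Not all members followed their list mean. The neural genes Sox1, Neurog2 and Dcx had ranges of only 0.73 to 1.04 over the arrays, and Tubb3 was highest in ES26. The visceral endoderm genes Apoa4, Hnf4a and Amn had ranges of 0.9 to 1.27, and Foxa2 was highest in ES26. The endothelial gene Pecam1 was highest in ES1 to ES12 (median 11.09, against 9.78 in ES15 to ES20). The streak genes Cer1 and Tbx6 were highest in ES19 and ES20. Fibroblast and mesenchyme genes had means of 8.29 to 10.58 in ES15 to ES20, 8.68 to 8.92 in ES25 and ES26, 7.01 to 8.18 in ES21 to ES24, 7.32 to 7.82 in ES13 and ES14, and 5.38 to 6.00 in ES1 to ES12. Among them Prrx1 was 11.28 and 11.31 in ES25 and ES26, 8.26 to 10.58 in ES21 to ES24 and 7.99 to 9.01 in ES15 to ES20. Twist1 and Twist2 were also highest in ES26, and Pdgfrb in ES25. The part of these cell types in the Hox values was not tested, and in RNA from whole samples fewer cells of a type and less RNA per cell cannot be told apart.

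Many Hoxc and Hoxd genes and the posterior Hoxa10 and Hoxa11 had their highest signal in ES15 to ES20, while Hoxc8 (ES14), Hoxd9 (ES13), Hoxa9 (ES5), Hoxc12 (ES22), Hoxc13 (ES3) and all Hoxb genes but Hoxb5 had it in another run. The array with the highest value lay in ES15 to ES20 for 13 of 34 Hox genes (38.2%, against 17.4% of all genes tested), in ES25 and ES26 for 7 (20.6%, against 15.2%), in ES13 and ES14 for 6 (17.6%, against 5.9%), in ES1 to ES12 for 6 (17.6%, against 45.2%) and in ES21 to ES24 for 2 (5.9%, against 16.2%). The 13 genes were Hoxa10, Hoxa11, Hoxb5, Hoxc4, Hoxc5, Hoxc6, Hoxc9, Hoxc10, Hoxd3, Hoxd8, Hoxd10, Hoxd11 and Hoxd13. The lowest value lay in ES1 to ES12, the run with the most arrays, for 28 of 34. No share of lowest values over all genes is given for that run. The 28 is thus not read as particular to the Hox genes. For 16 of the 28 genes the lowest value lay on ES4, a single array that held it for 16.1% of all genes tested.

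**Figure D1:**
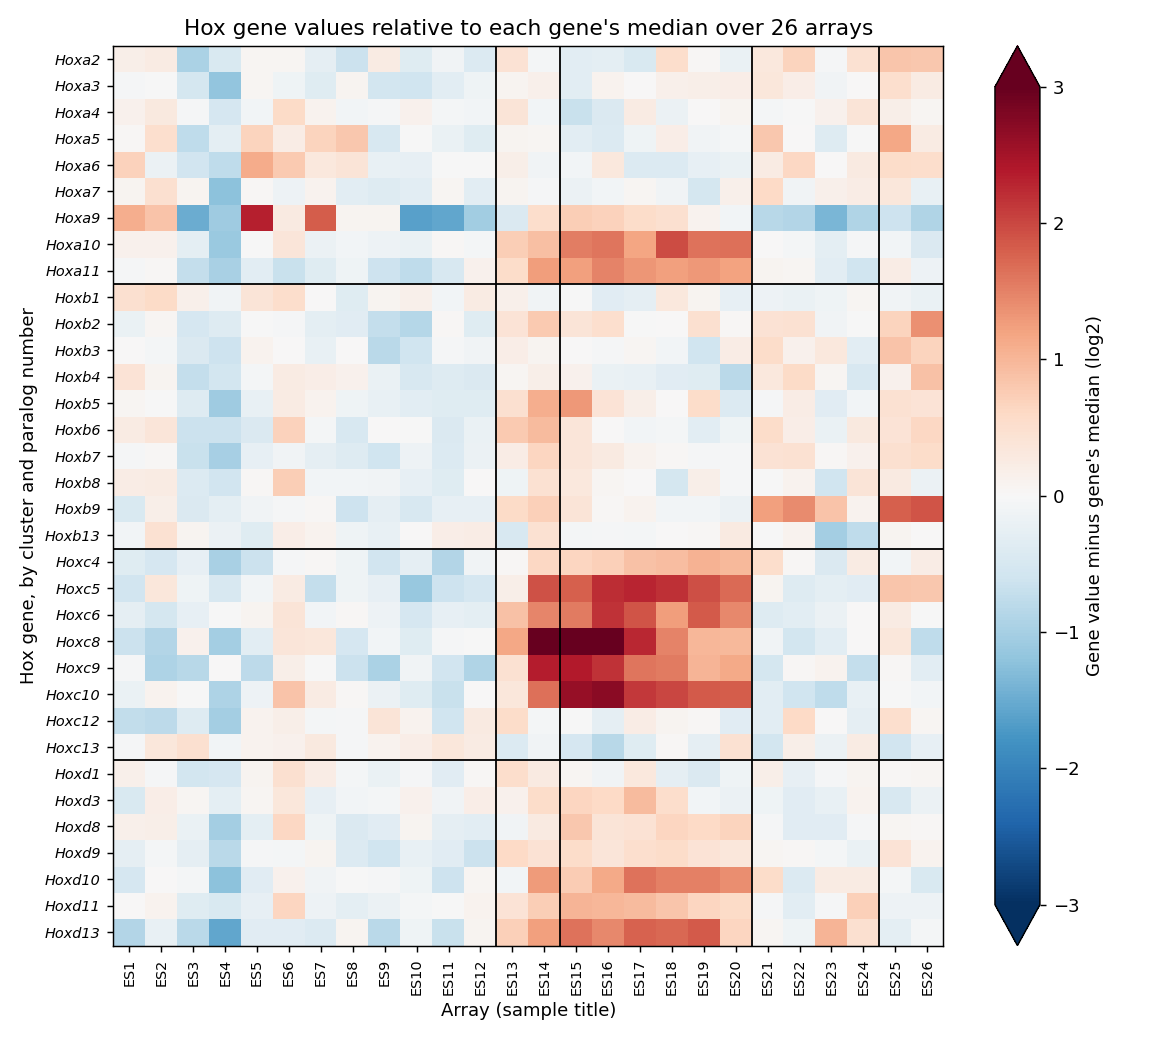
Heat map of the 34 Hox genes (rows, by cluster and paralog number) on 26 arrays (columns, in title order), each value being the gene value minus the gene's own median over the arrays on a log2 scale that is cut at 3 in either direction; black lines separate the runs of titles and the clusters. Hoxc5 to Hoxc10, Hoxa10, Hoxa11, Hoxd10 and Hoxd13 are red in ES14 to ES20, Hoxb9 is red in ES21 to ES23, ES25 and ES26, and Hoxa9 varies within ES1 to ES12.

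In the Hoxc cluster, Hoxc5, Hoxc6, Hoxc8, Hoxc9 and Hoxc10 shared the pattern, and Hoxc8, which patterns the thorax and brachial spinal cord, had the largest range of the 34 genes, 5.01 log2 units. Its gene value was 3.55 to 4.93 in ES1 to ES12 (median 4.35), 5.73 in ES13, 8.56 in ES14, and 8.44, 7.64, 6.83, 6.06, 5.55 and 5.54 in ES15 to ES20 in title order. It was 4.46, 4.01, 4.24 and 4.57 in ES21 to ES24, 4.89 in ES25 and 3.80 in ES26. ES14 and ES15 were thus the highest arrays, and the lowest array of ES15 to ES20 still lay above each array of ES1 to ES12 and ES21 to ES26.

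Hoxc9, a thoracic gene that holds back the limb programme of motor neurons, had the same arrays high. Its values were 8.61 in ES14, 8.62, 8.42, 7.85, 7.80, 7.26 and 7.38 in ES15 to ES20, 6.71 in ES13, 5.29 to 6.41 in ES1 to ES12, 5.54 to 6.34 in ES21 to ES24, and 6.28 and 5.94 in ES25 and ES26. Hoxc10, a gene of lumbar and hindlimb levels, was 7.65, 7.74, 7.15, 7.04, 6.88 and 6.85 in ES15 to ES20, 5.38 in ES13 and 6.68 in ES14. Elsewhere Hoxc10 lay between 4.12 and 5.90, so that the 6 arrays of ES15 to ES20 were above the other 20.

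Hoxc5 and Hoxc6, which mark cervical to brachial levels, were even across ES15 to ES20. Hoxc5 was 6.21 to 6.80 there (median 6.58), 4.70 in ES13, 6.44 in ES14, 3.38 to 4.87 in ES1 to ES12, 4.14 to 4.60 in ES21 to ES24, and 5.35 and 5.33 in ES25 and ES26. The ES25 and ES26 values of Hoxc5 lay between the other runs and overlapped none of them except ES13 and ES14, whose 2 arrays lay on either side. Hoxc6 was 6.39 to 7.31 in ES15 to ES20 (median 6.84), 6.02 in ES13, 6.61 in ES14, 4.61 to 5.53 in ES1 to ES12, 4.74 to 5.14 in ES21 to ES24, and 5.37 and 5.13 in ES25 and ES26.

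The pattern was smaller in Hoxc4 and not seen in the gene values of Hoxc12 and Hoxc13. Hoxc4, the most anterior Hoxc gene, was 5.63 to 6.01 in ES15 to ES20, 5.59 in ES14 and lower elsewhere, so that the 6 arrays of ES15 to ES20 were above the other 20 by a small gap. These Hoxc4 values lay near or below the level that marks dim genes (5.85 to 6.42 by array, described further on). Hoxc4 passed that level on only 1 array. Hoxc12 had a range of 1.62 with its highest value, 5.09, in ES22. Hoxc13, known for its role in hair and nails, was lowest in ES16 (4.87) and highest in ES3 (6.17).

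In the Hoxa cluster the posterior genes stood apart from the anterior ones. Hoxa10, which acts in the uterus, limb and blood progenitors, was 7.84, 7.91, 7.49, 8.27, 7.95 and 7.97 in ES15 to ES20, 7.06 in ES13, 7.22 in ES14, 5.19 to 6.67 in ES1 to ES12, 6.03 to 6.32 in ES21 to ES24, and 6.23 and 5.88 in ES25 and ES26. Every array of ES15 to ES20 was above the other 20 arrays. Hoxa11, a gene of the forearm, kidney and uterus, was 7.34 to 7.61 in ES15 to ES20, 6.68 in ES13, 7.38 in ES14, 5.16 to 6.25 in ES1 to ES12, 5.52 to 6.20 in ES21 to ES24, and 6.34 and 5.97 in ES25 and ES26. ES14 lay within the range of ES15 to ES20, so the run was not separate for Hoxa11. Hoxa2 to Hoxa7, by contrast, differed by -0.64 to 0.02 log2 units between the medians of ES15 to ES20 and ES21 to ES24.

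**Figure D2:**
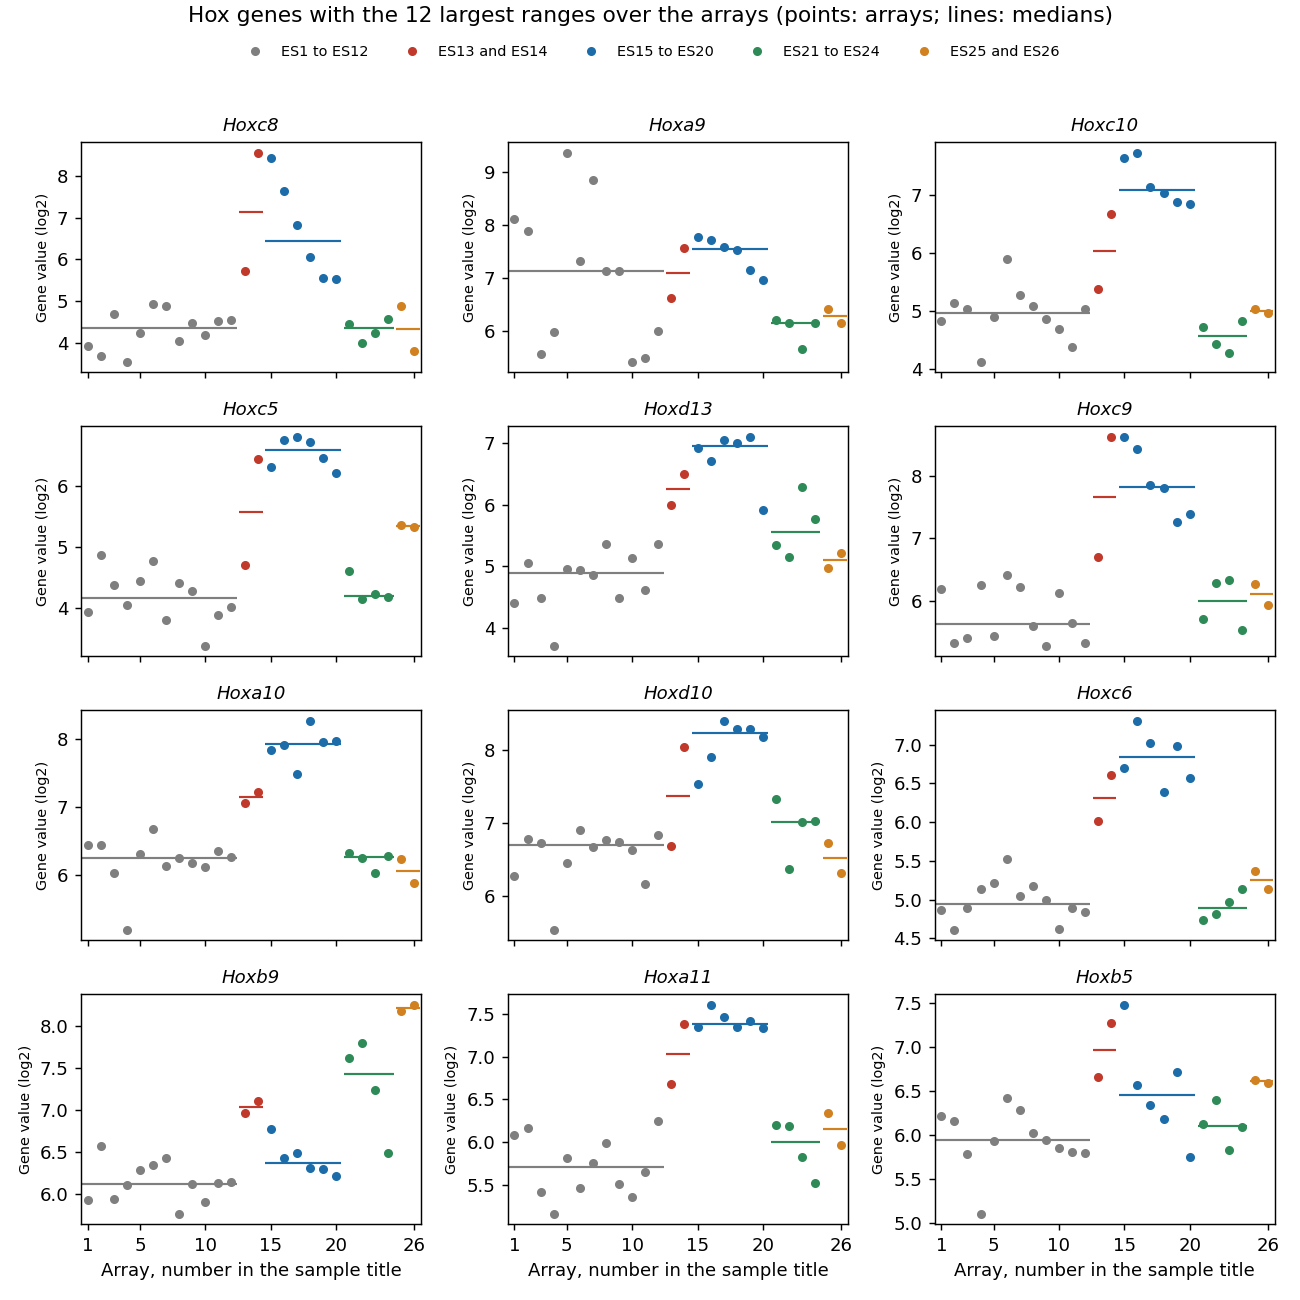
Gene value (log2, vertical axis, its own scale in each panel) of the 12 Hox genes with the largest ranges on each array (horizontal axis, number in the sample title), coloured by run, with a line at each run's median. Hoxc8 and Hoxc9 are highest in ES14 and ES15, Hoxc10 in ES15 and ES16, Hoxb9 in ES25 and ES26, and Hoxa9 in ES5 and ES7.

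In the Hoxd cluster, Hoxd13, which shapes digits and the genital tubercle, was 6.92, 6.72, 7.06, 7.00, 7.11 and 5.92 in ES15 to ES20. It was 6.00 in ES13, 6.51 in ES14, 3.71 to 5.36 in ES1 to ES12, 5.34, 5.16, 6.29 and 5.77 in ES21 to ES24, and 4.98 and 5.22 in ES25 and ES26. ES20 lay below ES13, ES14 and ES23, and the other 5 arrays of ES15 to ES20 were above every array outside the run. Hoxd10, a gene of lumbar motor neurons and limb, was 7.54 to 8.41 in ES15 to ES20 (median 8.24), 6.69 in ES13, 8.05 in ES14, 5.54 to 6.91 in ES1 to ES12, 6.38 to 7.34 in ES21 to ES24, and 6.73 and 6.32 in ES25 and ES26. Hoxd11, Hoxd9 and Hoxd8, with ranges of 1.47, 1.42 and 1.85, had run medians in ES15 to ES20 that were 0.93, 0.47 and 0.80 above ES21 to ES24, and Hoxd3 and Hoxd1 differed by 0.73 and -0.13.

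Promoter sequences are shown for some of the posterior Hoxa and Hoxd genes that were high together in ES15 to ES20, and for Hoxa9, whose pattern was different. They are the 250 bases before the transcription start in the RefSeq table of build GRCm38.p6, 5′ to 3′ on the gene's strand. Capitals mark, on either strand, the TATA box searched as TATAAA. They also mark the CCAAT box, searched by those 5 letters, and the GC box, searched as GGGCGG. Overlapping matches run together.
Hoxa9 (chr6:52227371-52227620, minus strand): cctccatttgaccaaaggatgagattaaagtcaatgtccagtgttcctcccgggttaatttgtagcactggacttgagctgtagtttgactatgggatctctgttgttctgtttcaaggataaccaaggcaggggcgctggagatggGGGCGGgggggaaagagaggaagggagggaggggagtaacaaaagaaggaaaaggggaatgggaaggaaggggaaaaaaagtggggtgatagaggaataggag
Hoxa11 (chr6:52245811-52246060, minus strand): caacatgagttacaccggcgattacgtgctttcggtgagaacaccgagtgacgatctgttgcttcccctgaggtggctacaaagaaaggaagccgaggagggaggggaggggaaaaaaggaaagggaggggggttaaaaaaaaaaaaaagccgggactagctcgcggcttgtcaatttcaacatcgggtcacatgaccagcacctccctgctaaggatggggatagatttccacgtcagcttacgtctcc
Hoxa13 (chr6:52260881-52261130, minus strand): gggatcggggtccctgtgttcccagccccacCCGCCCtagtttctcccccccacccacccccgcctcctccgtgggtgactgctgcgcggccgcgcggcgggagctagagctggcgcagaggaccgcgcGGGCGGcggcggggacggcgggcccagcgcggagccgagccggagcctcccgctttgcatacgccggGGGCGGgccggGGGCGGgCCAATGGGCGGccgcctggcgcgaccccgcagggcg
Hoxd10 (chr2:74691641-74691890, plus strand): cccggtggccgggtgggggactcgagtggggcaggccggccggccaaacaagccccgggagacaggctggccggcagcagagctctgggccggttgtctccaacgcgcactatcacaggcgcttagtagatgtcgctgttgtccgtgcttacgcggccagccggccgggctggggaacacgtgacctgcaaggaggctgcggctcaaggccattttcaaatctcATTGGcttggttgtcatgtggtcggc
Hoxd13 (chr2:74667975-74668224, plus strand): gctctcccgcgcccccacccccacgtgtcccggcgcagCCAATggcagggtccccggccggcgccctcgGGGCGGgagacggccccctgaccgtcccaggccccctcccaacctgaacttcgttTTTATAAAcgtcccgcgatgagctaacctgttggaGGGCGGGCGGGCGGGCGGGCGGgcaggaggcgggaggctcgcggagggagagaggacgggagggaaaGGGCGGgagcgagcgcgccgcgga

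Hoxa13, Hoxd10 and Hoxd13 each carried 1 CCAAT box, which starts at base -36, -26 and -212 counted from the transcription start. Hoxd13 and Hoxa13 also carried 7 and 5 GC boxes, Hoxd13 carried 2 overlapping TATA box matches, 1 on each strand, and the CpG sites numbered 31 in Hoxd13, 35 in Hoxa13 and 20 in Hoxd10. Hoxa9 carried 1 GC box with 3 CpG sites, and Hoxa11 carried none of the 3 motifs with 13 CpG sites. Of the genes not printed, Hoxa10 had 20 and 7 CpG sites at its 2 starts, and Hoxd11 had 2 and 20. High CpG counts were thus not shared by all starts of the genes high in ES15 to ES20. RefSeq starts were at hand for 22 of the 38 listed genes, 19 of them among the 34, with 24 starts in all since Hoxa10 and Hoxd11 have 2 each. The median was 13 CpG sites over the 21 promoters of the 19 genes and 6 over 32544 promoters of all genes in the table. A GC box was present in 10 of 24 (41.7%, against 33.0% of all promoters), a CCAAT box in 14 (58.3%, against 33.8%) and a TATA box in 4 (16.7%, against 12.3%). The Pbx and Hox pair motif TGATTNAT was found in 2 (8.3%, against 2.8%), the Cdx motif TTTATG in 5 (20.8%, against 10.8%) and the Meis motif TGACAG in 2 (8.3%, against 15.8%), on either strand. A match describes these letters and is not shown to be a bound site. Hoxa4, Hoxb2, Hoxb3, Hoxb5, Hoxb6, Hoxb7, Hoxb9, Hoxb13, Hoxc5, Hoxc6, Hoxc8, Hoxc9, Hoxc10, Hoxc12 and Hoxc13 had no entry used here.

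Apart from Hoxb5, the Hoxb genes had their highest array outside ES15 to ES20. Hoxb9, the thoracic member of the cluster, was 8.18 and 8.26 in ES25 and ES26, 7.62, 7.80, 7.24 and 6.49 in ES21 to ES24, 6.96 and 7.11 in ES13 and ES14, 6.21 to 6.77 in ES15 to ES20 and 5.76 to 6.57 in ES1 to ES12. ES25 and ES26 were above the other 24 arrays, and ES24 was the low array of its run. Hoxb9 thus ran opposite to its paralogs Hoxa9 and Hoxc9 between ES15 to ES20 and ES21 to ES24, with differences of run medians of -1.06, 1.40 and 1.82.

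Hoxb2, Hoxb3 and Hoxb4 were also highest in ES25 or ES26. Hoxb2, a gene of the hindbrain, was 7.75 in ES25 and 8.45 in ES26, 7.88 in ES14, and 6.24 to 7.58 on the other arrays. Hoxb3 was 8.19 and 8.00 there and 6.53 to 7.88 elsewhere, and Hoxb4, a gene used to expand blood stem cells, was 7.47 and 8.24 there, with ES21 and ES22 at 7.67 and 7.92. Hoxa2, Hoxa3 and Hoxa5 also had their highest value in ES25.

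Hoxb5, Hoxb6 and Hoxb7 had their highest value in ES14 or ES15. Hoxb6 was 7.64 and 7.82 in ES13 and ES14 and at most 7.55 elsewhere, Hoxb7 was highest in ES14 (7.61), and Hoxb5 was 6.66 in ES13, 7.27 in ES14, 7.48 in ES15, 5.75 to 6.72 in ES16 to ES20, 5.11 to 6.42 in ES1 to ES12, 5.83 to 6.40 in ES21 to ES24, and 6.63 and 6.59 in ES25 and ES26. Hoxb1, the rhombomere gene at the anterior end, had the smallest range of the 34 genes, 0.94, and was highest in ES2 (7.04). Hoxb8 and Hoxb13 had ranges of 1.34 and 1.48, with their highest values in ES6 (7.76) and ES14 (6.77).

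Set against ES21 to ES24, the pluripotent run that carries the same strain label, ES15 to ES20 had a median at least 1 log2 unit higher in 10 of 34 Hox genes (29.4%) and lower in 1, Hoxb9. Over all genes tested 6.85% were that much higher and 6.44% that much lower. In ES21 to ES24, Hoxc5, Hoxc6, Hoxc8 and Hoxc10 lay between 4.01 and 5.14, below the level that marks dim genes (5.85 to 6.42, described further on). Hoxa9, Hoxa10, Hoxa11, Hoxc9 and Hoxd13 lay between 5.16 and 6.34 in that run, near or below that level. Every difference of all these genes from that run is thus one of signal near background and gives no exact fold of RNA. By cluster the higher genes were 5 of 8 Hoxc (median difference of the cluster 1.88), 3 of 9 Hoxa (median -0.12), 2 of 7 Hoxd (median 0.80) and 0 of 10 Hoxb (median -0.12). By paralog number they were 0 of 7 genes of groups 1 to 3, 3 of 14 of groups 4 to 8 (all Hoxc) and 7 of 13 of groups 9 to 13 (median difference 1.21).

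**Figure D3:**
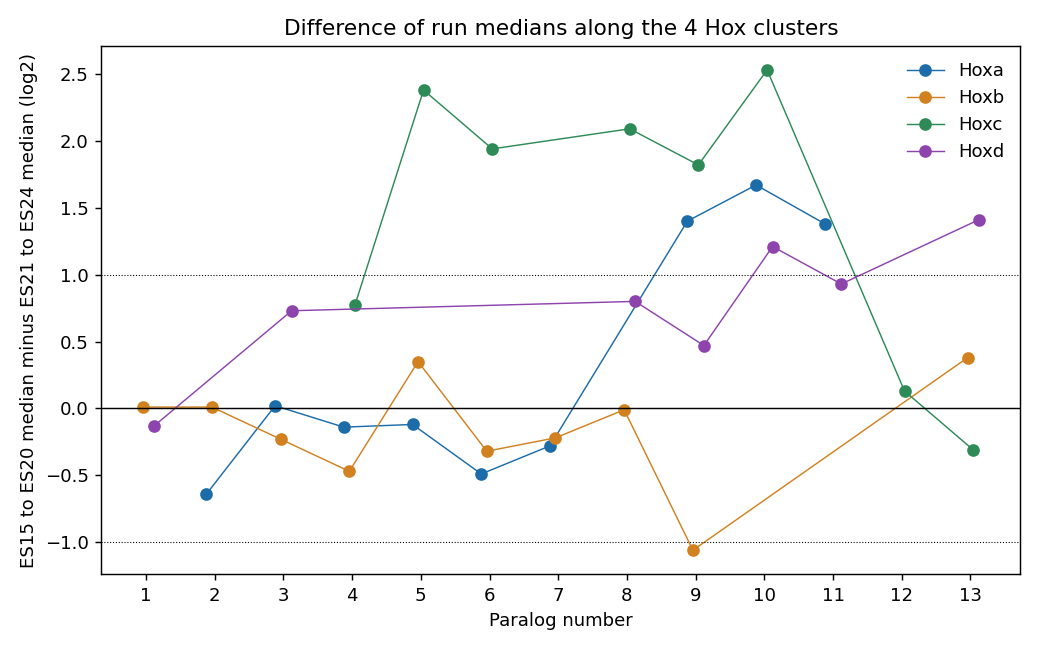
Difference of run medians, ES15 to ES20 minus ES21 to ES24 (log2, vertical axis), by paralog number (horizontal axis) for each cluster; each point is 1 gene, lines join genes of a cluster and dotted lines mark 1 log2 unit. Hoxa points pass 1 from paralog number 9, Hoxc points between 5 and 10, Hoxd points at 10 and 13, and the Hoxb point at 9 is the lowest at -1.06.

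The other runs shared the ES21 to ES24 arrays as their reference, so these values are set side by side only. ES13 and ES14 had a median at least 1 log2 unit higher in 6 of 34 (Hoxa11, Hoxc5, Hoxc6, Hoxc8, Hoxc9 and Hoxc10) and lower in 0, against 2.18% and 5.53% of all genes. For these 6 genes the difference in ES13 and ES14 was 1.02, 1.37, 1.42, 2.80, 1.65 and 1.46, and in ES15 to ES20 it was 1.38, 2.38, 1.94, 2.09, 1.82 and 2.53. ES25 and ES26 were that much higher in 1, Hoxc5 (1.14), and lower in 0, against 2.79% and 4.38%. ES1 to ES12 were higher in 0 and lower in 1, Hoxb9 (-1.31), against 10.4% and 11.4%.

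No Hox gene kept all arrays of ES15 to ES20 at least 1 log2 unit above all other 20 arrays, a gap that 0.0818% of all genes showed. Without ES13 and ES14, Hoxa11 did, against 0.605% of all genes. With any gap above 0 the genes were Hoxa10, Hoxc4 and Hoxc10 in ES15 to ES20, against 1.76% of all genes. In ES25 and ES26 they were Hoxa2, Hoxb3 and Hoxb9, against 4.52%, and in ES13 and ES14 Hoxb6, against 1.21%. A gap of 1 log2 unit was rare over all genes, so finding no Hox gene with it says little about the family.

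Hoxa9, a factor of blood progenitors that is also overexpressed in leukaemia, had the widest spread of the 34 genes inside the myeloid-marked run. Its values in ES1 to ES12, in title order, were 8.12, 7.89, 5.55, 5.97, 9.37, 7.32, 8.86, 7.12, 7.13, 5.41, 5.48 and 6.00, a range of 3.97. ES5 and ES7 were the 2 highest of all 26 arrays, and ES3, ES10 and ES11 were below each array of ES21 to ES24, which lay between 5.66 and 6.21. ES15 to ES20 were 6.96 to 7.77, within the range of ES1 to ES12. No other Hox gene value had a range above 1.88 within ES1 to ES12, the value of Hoxa6, which was also highest in ES5 (6.10).

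Hoxa7, the neighbour of Hoxa9 in the cluster, had a gene value of 7.43 to 9.14 in ES1 to ES12, and its widest probe set lay outside the gene value. In ES1 to ES12, in title order, this probe set was 5.45, 3.59, 2.34, 3.73, 6.21, 4.91, 5.54, 4.36, 3.56, 2.98, 2.78 and 2.44. It was highest in ES5 and ES7, as Hoxa9 was, but low in ES2, where Hoxa9 was 7.89. Meis1, the cofactor of Hoxa9, was 6.76, 5.76, 4.72, 6.02, 6.95, 6.70, 6.55, 6.90, 6.04, 5.17, 4.87 and 5.74 on these arrays. ES5 was the highest for Meis1 too, while ES6 and ES8 were near it with Hoxa9 at 7.32 and 7.12. The myeloid marker mean was 12.17, 11.74, 12.13, 12.47, 11.15, 11.26, 11.62, 11.71, 12.19, 12.10, 11.87 and 11.93, lowest in ES5, ES6 and ES7. Its part in the spread of Hoxa9 was not tested.

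The strain label is the comparison that the labels give. With all 26 arrays, limma with Benjamini-Hochberg adjustment over 18341 genes called 13 of 34 Hox genes lower (38.2%) and 1 higher (2.9%) in arrays labelled 129S2/SvPas, where 22.1% of all genes tested were lower and 21.1% higher. The 13 lower genes were Hoxa3, Hoxa10, Hoxa11, Hoxb2, Hoxb7, Hoxb9, Hoxc4, Hoxc5, Hoxc6, Hoxc9, Hoxd9, Hoxd10 and Hoxd13, and Hoxc13 was higher. The median difference over the 34 genes was -0.36 log2 units and the range -1.20 to 0.33. By paralog number, 2 of 7 genes of groups 1 to 3, 4 of 14 of groups 4 to 8 and 7 of 13 of groups 9 to 13 were lower. The split between lower and higher was 7 to 2 after centring arrays on their median gene value and 5 to 2 after quantile normalization, where Hoxa11, Hoxc4, Hoxc5, Hoxd10 and Hoxd13 were the lower genes.

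Differences passed 1 log2 unit in 2 called genes. Hoxc5 was 4.38 ± 0.72 (SD, n = 14) in arrays labelled 129S2/SvPas and 5.59 ± 1.08 (SD, n = 12) in those labelled C57BL/6, a difference of -1.20 with a standard error of 0.34 (limma adjusted p = 0.00486). Hoxd13 was 4.99 ± 0.70 against 6.12 ± 0.82, a difference of -1.14 with a standard error of 0.28 (limma adjusted p = 0.00193). Both Hoxc5 means lay below the level that marks dim genes (5.85 to 6.42 by array, described further on). The Hoxd13 means lay below and within that level. Each of these genes passed it on only 7 arrays. Both differences thus rest largely on signal near background and give no exact fold of RNA. The 2 label groups overlapped in both genes. For Hoxc5, ES21 to ES24, labelled C57BL/6, lay within the range of ES1 to ES12, and ES14, labelled 129S2/SvPas, lay within that of ES15 to ES20. For Hoxd13, ES23 and ES24 lay above each array of ES1 to ES12, and ES13 and ES14 lay above ES20.

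The label comparison mixed runs that differed in Hox values, and ES13 and ES14 stood apart from the other arrays of their label. Their mean correlation over genes was 0.821 and 0.824 with ES1 to ES12 and 0.944 and 0.948 with the arrays labelled C57BL/6. Without them 20 Hox genes were lower and 2 higher in limma, against 25.2% and 25.2% of all genes, the added lower genes being Hoxa2, Hoxb3, Hoxb5, Hoxc8, Hoxc10, Hoxd8 and Hoxd11. Hoxc8, not called with 26 arrays at -0.79 (standard error 0.51), differed by -1.19 without ES13 and ES14. Without ES1 to ES12, 2 arrays against 12, limma called 0 Hox genes, with 2 at an unadjusted p below 0.05. In that fit Hoxc8 differed by 1.64 in the other direction (limma adjusted p = 0.672). The 37 pathway genes called with all arrays, described further on, also fell to 0 in it. Its count over all genes is not given here, so the 0 is not read as particular to the Hox genes. Strain, cell type and any unrecorded batch follow the order of the titles and cannot be told apart.

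**Figure D4:**
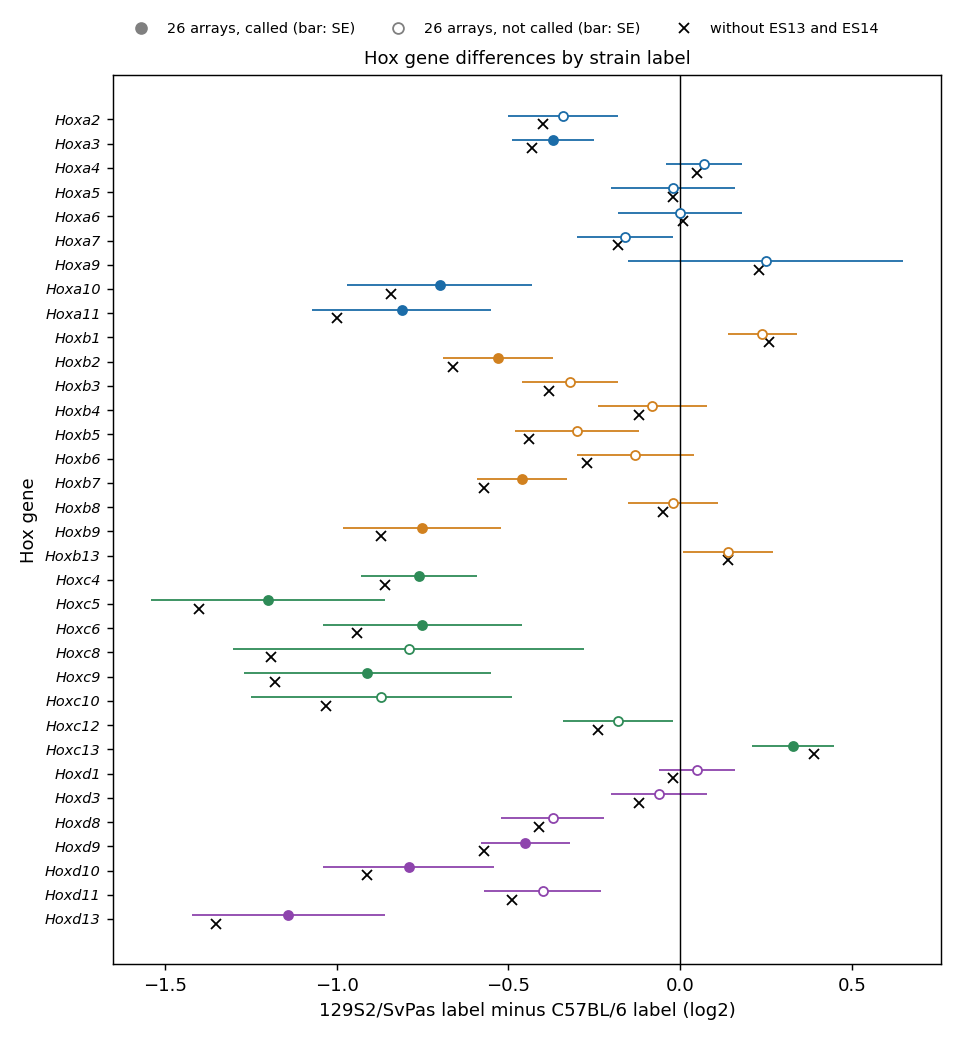
Difference of each Hox gene by strain label, 129S2/SvPas minus C57BL/6 (log2, horizontal axis), with the standard error as a bar, filled where limma called it with all 26 arrays, and a cross for the difference without ES13 and ES14. Hoxc5 (-1.20) and Hoxd13 (-1.14) lie farthest to the left and Hoxc13 (0.33) farthest to the right, and without ES13 and ES14 the differences of Hoxc5 to Hoxc10 move further left.

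Single probe sets showed wider ranges than the gene values. Among the 249 Hox probe sets, 73 were called lower and 2 higher by limma with Benjamini-Hochberg adjustment over all 631748 probe sets, of which 14.6% were lower and 14.2% higher. A range of at least 3 log2 units over the arrays was reached by 97 of the 249 (39.0%, against 17.7% of all probe sets), and 62 of these 97 were not among the brighter 50% that make the gene value. In 23 of 34 genes the widest probe set lay outside the gene value. Neither of these counts outside the gene value was taken over all genes, so they describe the Hox genes and are not read as particular to them.

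**Figure D5:**
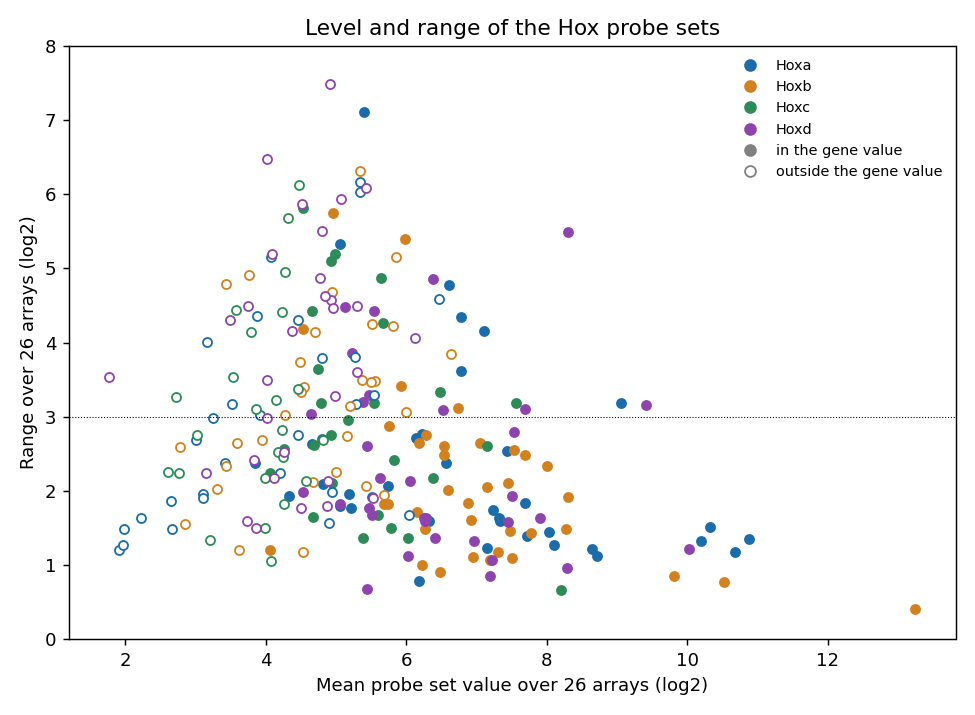
Range over 26 arrays against mean value (both log2) for the 249 Hox probe sets, coloured by cluster and filled where the probe set enters the gene value; the dotted line marks a range of 3. Many open points lie above the line with means below 6, and the widest, at 7.49, is a Hoxd11 probe set outside its gene value.

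Hoxd11, a partner of Hoxa11 in the forearm, had the widest probe set of all, while its gene value had a range of 1.47. That probe set (5396842) was 6.61 in ES13, 8.47 in ES14, 8.62, 9.26, 9.46, 9.47, 9.49 and 9.18 in ES15 to ES20, 2.00 to 4.54 in ES1 to ES12, 3.85 to 5.02 in ES21 to ES24, and 2.93 and 4.10 in ES25 and ES26. ES13 to ES20 were above the other 18 arrays by at least 1.59. Of 16 Hoxd11 probe sets 8 were called lower and 7 had a range of at least 3.

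Hoxd9, Hoxa11 and Hoxd13 had like probe sets, taken by the same rule as the widest of the gene. The Hoxd9 probe set (4526302) was 10.39 in ES13, 11.31 in ES14, 10.47 to 11.60 in ES15 to ES20, 6.11 to 7.52 in ES1 to ES12, 6.73 to 7.82 in ES21 to ES24, and 8.46 and 8.63 in ES25 and ES26, a gap of 1.76. The Hoxa11 probe set (4773473) was 9.01 to 9.66 in ES15 to ES20, 7.07 in ES13, 8.81 in ES14, 4.13 to 6.04 in ES21 to ES24, 5.46 and 5.70 in ES25 and ES26, and 2.55 to 3.79 in ES1 to ES12. For Hoxa11 the ES21 to ES26 arrays were thus all above ES1 to ES12, an order that its gene value did not show.

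In Hoxb6 the widest probe set (5024920) separated arrays that the gene value did not. It was 8.21 and 9.12 in ES13 and ES14, 8.88, 7.87, 5.57, 5.92, 4.96 and 4.93 in ES15 to ES20, 7.41, 7.87, 6.42 and 3.76 in ES21 to ES24, 7.96 and 8.50 in ES25 and ES26, and 2.80 to 4.15 in ES1 to ES12. The widest Hoxb2 probe set had the same arrays high, with 7.23 and 7.88 in ES13 and ES14, 7.38, 6.55, 5.26, 4.17, 5.00 and 4.54 in ES15 to ES20, 7.04, 7.11, 5.26 and 4.12 in ES21 to ES24, 7.75 and 8.45 in ES25 and ES26, and 2.69 to 4.35 in ES1 to ES12. In both genes ES15 and ES16 were above ES17 to ES20, and ES24 was the low array of ES21 to ES24.

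When the gene value was taken from the more variable 50% of probe sets instead, an alternative chosen after seeing the data, 14 of 34 Hox genes were at least 1 log2 unit higher in the median of ES15 to ES20 than of ES21 to ES24 (41.2%, against 9.6% of all genes) and 2 were lower, Hoxb9 (-1.71) and Hoxb2 (-1.02). The 14 were 6 of 8 Hoxc, 5 of 7 Hoxd and 3 of 9 Hoxa genes. Hoxc10 differed by 4.19, Hoxd11 by 3.67, Hoxc6 by 3.38 and Hoxa11 by 3.20 on that value.

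Of the 4 listed genes under the minimum, Hoxa13, a gene of digits and hindgut with 2 probe sets, was 6.27 to 6.81 in ES15 to ES20, 4.22 in ES13, 4.55 in ES14 and 1.97 to 3.44 on the other 18 arrays. Hoxc11 (3 probe sets) was 4.92 to 6.06 in ES15 to ES20, 4.73 in ES13, 5.64 in ES14 and 3.99 to 4.95 elsewhere. Hoxd12 (3 probe sets) had a range of 2.19 with its lowest value in ES23 and its highest in ES18. Hoxd4 had no probe set of its own, and the 13 that it shares with Hoxd3 had a range of 1.09. These genes entered no count or test above.

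Signal levels were read against 299 chemosensory receptor genes, which most cell types keep silent. A Hox gene value lay above their 95th percentile (5.85 to 6.42 by array) on every array for 9 genes, on some arrays for 21 and on no array for 4, Hoxa2, Hoxa6, Hoxc12 and Hoxd3. Hoxc4 passed it on 1 array, Hoxc8 on 4, Hoxc10, Hoxc5, Hoxc6 and Hoxd13 on 7 each, and Hoxa7 and Hoxa4 on all 26. This is a rough guide, since probe sets differ in brightness.

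Genes that act with or on Hox genes were counted in 7 lists, of which 79 of 97 listed genes were tested. By strain label limma called 27 lower and 10 higher, with the background given above. Of 8 TALE cofactors, the homeodomain partners that help Hox proteins bind DNA, 4 were lower and 1 higher. Meis1 was 8.43 to 10.34 in ES15 to ES20, 9.03 and 9.16 in ES25 and ES26, 6.80 to 8.68 in ES21 to ES24, 5.79 and 7.41 in ES13 and ES14, and 4.72 to 6.95 in ES1 to ES12, a strain difference of -2.94 (standard error 0.37, limma adjusted p = 6.67e-07). Meis2 differed by -3.85 (standard error 0.34, limma adjusted p = 1.05e-08) and Pknox2 by 1.18 (standard error 0.29, limma adjusted p = 0.00174).

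Of 17 genes of retinoic acid supply and response 7 were lower and 2 higher. Rarb, a receptor that retinoic acid itself induces, was 6.60, 7.20, 8.32, 9.86, 9.92 and 10.29 in ES15 to ES20 in title order and 4.79 to 5.63 on the other 20 arrays. The order of these 6 arrays was the reverse of that of Hoxc8. It was not particular to Rarb. Egr2, the fibroblast genes Dcn, Lum and Col3a1, and the visceral endoderm gene Afp, picked after their values were seen, also rose from array to array there. A link between Rarb and Hoxc8 was not tested. Cyp26a1, which breaks down retinoic acid, was 10.74 and 9.22 in ES13 and ES14 and at most 7.80 elsewhere, and Crabp2, a retinoic acid carrier, differed by -3.25 by strain label (standard error 0.35, limma adjusted p = 1.20e-07).

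Among 9 Caudal, ParaHox and cluster-linked homeobox genes 1 was lower, Gsx1 (-0.71), and 1 was higher, Gsx2. Cdx2, which opens central Hox genes, was 9.07 to 9.44 in ES13 and ES14, 8.04 to 8.88 in ES15 to ES20 and 7.30 to 8.21 on the other arrays, and Evx1 was 8.68 to 9.82 in ES13 and ES14 against 7.80 to 8.86 elsewhere. Of 5 hindbrain regulators 1 was lower, Zic1 (-0.39). Egr2, a driver of hindbrain Hox genes that also acts in macrophages, was 6.82 to 10.20 in ES1 to ES12 and 6.30 to 9.83 in ES15 to ES20, and Nab1, its corepressor, 8.17 to 9.90 over all arrays.

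Of 24 Polycomb genes, whose complexes silence the clusters, 8 were lower and 4 higher, and of 12 MLL and trithorax genes, which keep them active, 5 were lower and 2 higher. The Polycomb genes with the largest ranges, Phc1, Pcgf6 and Pcgf2, differed by -2.34, -0.65 and -1.39 by strain label, and Phc1 was 10.43 to 11.28 in ES21 to ES24 and 6.86 to 7.70 in ES1 to ES12. Psip1 differed by -0.94, Wdr5 by 0.40 and Dpy30, not called, by 0.31.

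Of the 4 noncoding RNAs of the clusters 1 was lower, Hoxa11os, the antisense neighbour of Hoxa11, at -1.16 (standard error 0.29, limma adjusted p = 0.00209). It was 7.18 to 7.60 in ES15 to ES20, 6.00 in ES13, 6.71 in ES14 and 4.73 to 5.77 on the other 18 arrays, the same arrays that were high for Hoxa11, and signal of the pair is separable only as far as the probes are strand-specific. Hoxb5os and Hoxaas2, not called, differed by -0.28 and 0.12.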

How the data were processed

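The authors deposited RMA values of 631748 probe sets on 26 arrays, made by extended-exon analysis, per the labels, with Affymetrix Expression Console, per the submitters' processing notes, and the program's version is not known here. RMA corrects background, normalizes arrays to a common distribution and summarises probes, and the deposited values are taken as log2 by that convention and by their range, 0.831 to 15.638. Per-array medians were 5.32 to 5.51, no value was missing and no 2 arrays were identical; arrays give no read depth, and their number limits the precision.

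Gene names came from the platform annotation (1 symbol for 306069 probe sets, 48.4%), updated through the RefSeq gene table of GRCm38.p6; that annotation names no build, so gene coordinates are given only for RefSeq promoters. Gene values, defined in the opening, were compared by strain label with limma 3.58.1 in R 4.3.3 (lmFit, eBayes with a trend, two-sided, Benjamini-Hochberg over all genes, threshold 0.05), and likewise probe sets. Runs of titles were described by lowest, median and highest values without a test. The code was tested on simulated data.

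All Hox genes are named; values by array or run are given for the 12 with the largest range, for called genes past 1 log2 unit, and, for the 3 genes of each list with the largest range, values by run or the strain difference alone. Further members, the widest probe sets and the printed promoters were chosen after their values were seen. The members and lists were chosen with earlier results of these data known. Alternatives were other gene values, normalizations, filters, tests and samples left out. Some listed genes are not reported here.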

Additional observations from a re-analysis of the deposited data

How the results depend on the processing

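The count of Hox genes called by strain label, 14, lay between 10 and 19 when single arrays were left out. It was 9 with arrays centred on their median gene value, 7 after quantile normalization, 4 of 11 genes with at least 8 probe sets, 0 of the 2 genes left without the dimmer 50% of genes, 22 without ES13 and ES14, and 0 (2 at an unadjusted p below 0.05) without ES1 to ES12. In that last setting the difference changed sign for Hoxa10 (0.11), Hoxa11 (0.31), Hoxb2 (0.25), Hoxb7 (0.19), Hoxb9 (0.02), Hoxc6 (0.39), Hoxc9 (0.70), Hoxd9 (0.26), Hoxd13 (0.13) and Hoxc13 (-0.05). Their limma adjusted p-values there were 0.745 to 0.993, so no change of direction is read from these values. Hoxc13 also reversed with the median over all probe sets (-0.16) and over the more variable ones (-0.06). The count was 12 to 21 with the 6 other gene values, fits or tests. Single arrays left out ended the calls of Hoxc9 in 15 of 26 cases, Hoxc6 in 13, Hoxa10 in 11 and Hoxc13 in 5. The 75 Hox probe sets called became 34 of 113 without the dimmer 50% of probe sets and 0 (14 unadjusted) without ES1 to ES12. The 37 pathway genes called became 0 (10 unadjusted) without ES1 to ES12 and 35 to 42 without single arrays. The 0 Hox genes apart in ES15 to ES20 became 3 at any gap and 1 without ES13 and ES14. The 9 Hox genes above the dim reference became 1 at its 99th percentile and 1 against the median of all gene values. The causes were not tested, apart from the fewer genes and arrays in some settings. No paired analysis was possible because replicate numbers were given in accession order and pair nothing.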
